A study of Homo sapiens with 4 samples.

Results

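The nuclear-encoded subunits of the mitochondrial respiratory chain and of ATP synthase were examined in Kasumi-1 cells with knockdown of ANP32B. Members were taken by gene symbol: the NDUFA, NDUFB, NDUFC, NDUFS, NDUFV and NDUFAB subunits of complex I, SDHA to SDHD of complex II, the UQCR genes and CYC1 of complex III, CYCS for cytochrome c, the COX4 to COX8 subunits of complex IV, and the ATP5 genes of complex V. The names matched 95 genes of the 18567 in the table, of which 11 were dropped as pseudogenes, leaving 84. A level of at least 1 TPM, a unit that gives each transcript's share of its sample after correction for length, in at least 2 samples was reached by 83 of these, among 16817 genes tested in all. The exception was COX7A1, the heart and muscle form of a complex IV subunit, with 0.883 and 0.590 TPM in NC against 1.63 and 0.716 TPM after knockdown. Every other member had at least 1 TPM in all 4 samples, so the filter did not select members by the group in which they were high. COX4I2, COX6A2, COX6B2, COX7B2, ATP5MGL and the ATP5MF-PTCD1 readthrough were not analysed here.

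In the respiratory chain, complexes I and II pass electrons from NADH and succinate to ubiquinone, complex III passes them to cytochrome c, and complex IV passes them to oxygen. Complexes I, III and IV pump protons out of the mitochondrial matrix, and complex V, the ATP synthase, makes ATP as the protons flow back. Most subunits are encoded in the nucleus and imported, while a small set of core subunits of complexes I, III, IV and V comes from the mitochondrial genome, so that the enzymes need products of both. Acute myeloid leukemia (AML) cells are known for their reliance on this pathway.

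Kasumi-1 is an established AML cell line with a fusion of RUNX1 and RUNX1T1. RNA-seq was available for 2 control samples, called NC, and for 2 samples, called sh-ANP32B, in which a short hairpin RNA lowered ANP32B, a histone-binding nuclear protein. The labels give the NC cells as untreated and with no hairpin, but a control hairpin is part of the study's methods, so it was not settled whether lentivirus and puromycin were shared by both groups. The labels name neither the hairpin, of 3 that the study used, nor the time of harvest. Nothing states that the 2 samples of a group came from separate cultures, and p-values then measure the spread between these samples, which may be technical.

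The level of ANP32B was 384 and 392 TPM in NC against 51.8 and 41.2 TPM after knockdown, so all 4 libraries matched their labels. Sequencing depth was unknown because TPM does not keep it, and no counting interval was computed. Transcripts of the mitochondrial genome took 12.9% and 13.1% of all TPM in the NC samples, 11.4% in sh-ANP32B replicate 1 and 8.43% in replicate 2, and TPM values are shares of a sample. Of 7 markers of Kasumi-1, RUNX1, RUNX1T1, CD33 and ANPEP were at 15.6 TPM or more in every sample, KIT was at 1.55 to 3.41 TPM, and CD34 and MPO were not analysed here. Of the B cell markers, CD79A alone is reported, at 0 to 2.17 TPM, and the part of B cell RNA in any result was not tested. T cell, erythroid, fibroblast and hepatocyte markers were not analysed here. No batch is named in the labels, and values within batches could not be had.

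Across the respiratory chain, 1 gene passed the test between groups. UQCR11, which encodes the smallest subunit of complex III, fell to 46.1% of its NC level, and the other 82 members tested did not pass. Lower in sh-ANP32B with an adjusted p under 0.05 were therefore 1.2% of the members, beside 1.18% of all genes tested, and higher were 0 members, beside 2.14% of all genes, or 3.32% in both directions (limma on log2(TPM + 1), Benjamini-Hochberg adjustment over 16817 genes). By this count the members did not stand apart from the background. At an unadjusted p under 0.05, 14 members were lower, or 16.9% beside 8.72% of all genes, and 1 member, COX8C, was higher, or 1.2% beside 15% of all genes. The criterion of the study, an unadjusted p under 0.05 and an absolute log2 fold change over 0.5, was met by 4 members, all lower, namely UQCR11, ATP5MC1, NDUFAB1 and COX6C. These were 4.82% of the members, beside 6.55% of all genes on the lower side, and no member met it on the higher side, beside 12.1% of all genes.

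Most subunits differed between groups by less than the test could separate, and more of them lay below 0 than above it. A log2 fold change below 0 was found for 55 of 83 members, or 66.3%, beside 42.1% of all genes, and the median was -0.11 over the members and 0.083 over all genes tested. Both sh-ANP32B values lay below both NC values for 31 members, or 37.3% beside 21.4% of all genes, and above both for 7 members, or 8.43% beside 33.2%. The groups overlapped for 45 members. After median-of-ratios scaling, which set the median of all genes close to 0, 66 of 83 members had a log2 fold change below 0 with a median of -0.20, and the split of all calls changed from 199 lower and 360 higher to 294 lower and 236 higher. Members were more abundant than most genes, with a median NC level of 110.4 TPM beside 14.3 TPM, and their fitted errors were smaller, with a median SE of 0.155 beside 0.214. The part of abundance in these shares was not tested. In bulk samples fewer cells of a type and less RNA per cell cannot be told apart.

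**Figure D1:**
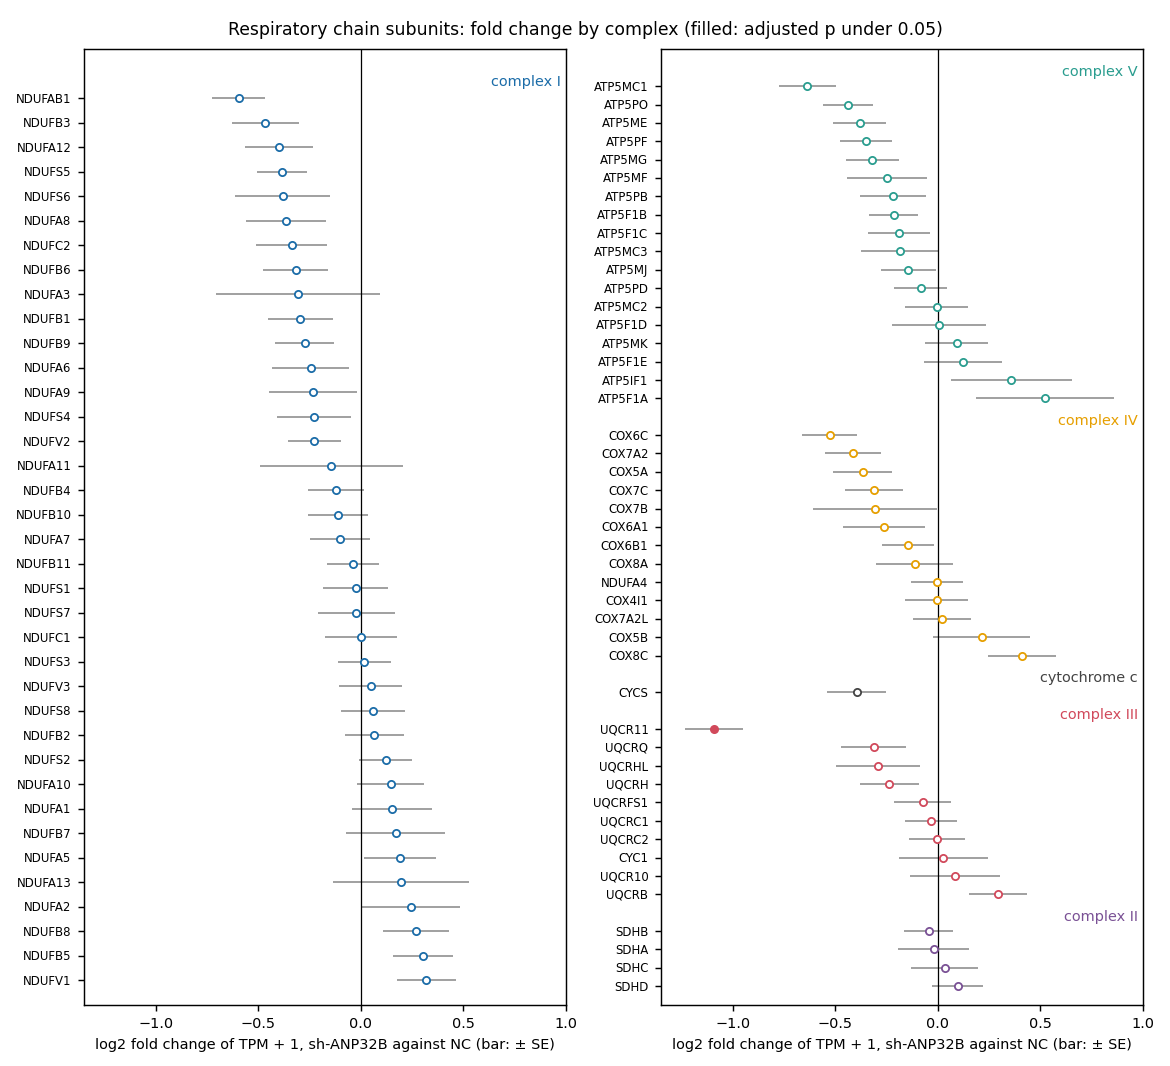
Log2 fold change of TPM + 1 in sh-ANP32B against NC for the 83 members tested, by complex, with bars for ± 1 SE from limma. UQCR11 at -1.09 is the 1 filled point, with an adjusted p under 0.05, and complex II lies close to 0.

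UQCR11 (ENSG00000127540) spans 1597169 to 1605473 of chromosome 19 (hg38, minus strand). In NC it was at 60.9 and 63.2 TPM in replicates 1 and 2, and in sh-ANP32B at 29.8 and 27.4 TPM. Both knockdown samples had less than any control sample, and the replicates of each group lay close together. Group means were 62.0 ± 1.59 TPM for NC against 28.6 ± 1.64 TPM for sh-ANP32B (n = 2 each, SD), a log2 fold change of -1.09 (SE 0.143, adjusted p by limma 0.0304). An annotated coding gene, ENSG00000267059, overlaps UQCR11 on the same strand and was not analysed here, so a sharing of reads with it cannot be told apart. With limma fitted without the abundance trend the adjusted p was 0.114, and leaving out NC replicate 1 or NC replicate 2 gave 0.0520 and 0.0789, at log2 fold changes of -1.12 and -1.07.

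Sequence before the start site is shown for UQCR11, for ATP5MC1 and NDUFAB1, which had the next lowest log2 fold changes, for ATP5ME, a complex V gene that holds 3 of 4 motifs searched, and for SDHB and SDHD, complex II genes with 3 motifs or more and log2 fold changes near 0. Each stretch is taken from RefSeq promoters of GRCh38.p14 and ends before the first base of the gene in GENCODE. It is written 5′ to 3′ on the strand of the gene, and capitals mark matches, in either orientation, to the E-box CACGTG, which MYC and its partner MAX can bind, the NRF1 core GCGCATGC, the ETS core CCGGAAG and the YY1 core ATGGCGG. The positions are chr19:1605474-1605662 (minus strand), chr17:48892587-48892764 (plus strand), chr16:23596317-23596516 (minus strand), chr4:674331-674476 (minus strand), chr1:17054033-17054232 (minus strand) and chr11:112086673-112086823 (plus strand).
UQCR11: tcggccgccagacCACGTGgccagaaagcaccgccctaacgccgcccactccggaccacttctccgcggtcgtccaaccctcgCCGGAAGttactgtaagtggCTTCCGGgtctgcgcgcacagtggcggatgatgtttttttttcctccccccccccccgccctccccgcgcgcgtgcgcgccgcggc
ATP5MC1: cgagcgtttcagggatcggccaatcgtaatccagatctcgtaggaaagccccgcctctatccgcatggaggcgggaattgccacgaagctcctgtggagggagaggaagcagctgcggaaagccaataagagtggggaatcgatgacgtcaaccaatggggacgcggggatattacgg
NDUFAB1: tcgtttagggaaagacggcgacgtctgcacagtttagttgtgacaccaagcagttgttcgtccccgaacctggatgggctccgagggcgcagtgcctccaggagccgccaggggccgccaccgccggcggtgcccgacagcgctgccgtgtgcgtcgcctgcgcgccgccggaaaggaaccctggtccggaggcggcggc
ATP5ME: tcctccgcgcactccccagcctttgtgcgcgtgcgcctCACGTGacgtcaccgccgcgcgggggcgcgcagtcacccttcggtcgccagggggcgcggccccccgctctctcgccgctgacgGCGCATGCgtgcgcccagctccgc
SDHB: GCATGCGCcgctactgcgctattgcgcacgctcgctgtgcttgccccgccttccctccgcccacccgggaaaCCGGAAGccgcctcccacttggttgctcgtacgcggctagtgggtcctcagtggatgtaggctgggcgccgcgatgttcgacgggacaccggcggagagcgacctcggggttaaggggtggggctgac
SDHD: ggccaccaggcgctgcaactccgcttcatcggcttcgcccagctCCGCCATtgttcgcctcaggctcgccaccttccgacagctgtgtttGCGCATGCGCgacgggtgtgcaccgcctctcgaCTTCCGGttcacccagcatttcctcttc
UQCR11 holds the E-box at position -187 from the start and ETS cores at -117 and -97. The ATP5MC1 and NDUFAB1 stretches hold no match to these letters, and ATP5MC1 has an E-box at position 5 within the transcript, outside what is shown. ATP5ME holds an E-box at -162 and an NRF1 core at -78. Positions count from the RefSeq start, and the 11 bases before it for UQCR11 and the 54 for ATP5ME are not shown.

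Over all windows, which run from 250 bases before to 50 after a start, 68 of the 83 members tested were matched by symbol, with 81 windows. The NRF1 core was in 19.8% of member windows, beside 3.05% of all windows in the RefSeq table and 5.14% of windows of the genes tested. The YY1 core was in 28.4%, beside 5.55% and 9.64%, and the ETS core in 27.2%, beside 10.3% and 17.7%. NRF1, YY1 and the ETS factor GABP are known regulators of respiratory genes. The E-box was less common, in 8.64% of member windows beside 7.26% and 9.80%. Both strands were searched, 5 pairs of matches overlapped, and 25 matched members held none of the 4 motifs.

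The 7 members with an E-box were ATP5MC1, ATP5ME, ATP5PB, NDUFA11, NDUFA7, NDUFS7 and UQCR11. All 7 had a log2 fold change below 0, with a median of -0.22, beside 39 of the 61 matched members without one, with a median of -0.074. In sh-ANP32B replicate 2 alone, NDUFA11, NDUFS7 and NDUFA7 lay above the NC mean, by 0.44, 0.23 and 0.019. The groups overlapped for these genes and for ATP5PB. The share below 0 over all genes with an E-box was not computed. Of these 7, UQCR11 passed the test. For the NRF1 core, 12 of 15 members with it and 34 of 53 without it lay below 0, with medians of -0.19 and -0.083. For the ETS core these were 13 of 21 and 33 of 47, with medians of -0.045 and -0.12, and for the YY1 core 13 of 21 and 33 of 47, with medians of -0.034 and -0.14. A match is a description of letters and not of binding, and no test was made on these counts. MYC itself was at 131 and 144 TPM in NC against 56.7 and 63.2 TPM after knockdown, a log2 fold change of -1.18 (SE 0.137, adjusted p by limma 0.0261). Whether MYC had a part in the values of these members was not tested.

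Complex I, which oxidises NADH, was represented by 37 nuclear genes, of which 0 passed the test by limma and 4 had an unadjusted p under 0.05, all lower. The 7 core catalytic subunits, which carry the flavin and the iron-sulfur clusters or hold them in place, had log2 fold changes from -0.23 to 0.32 with a median of 0.017, and 3 of them lay below 0. The 30 accessory subunits had a median of -0.13, and 19 lay below 0. NDUFAB1, the mitochondrial acyl carrier protein, was the lowest of complex I. It was at 226 and 218 TPM in NC against 155 and 138 TPM after knockdown, with no overlap between groups, and its log2 fold change was -0.60 (SE 0.128, adjusted p by limma 0.0584). It passed the test after median-of-ratios scaling, GC correction or a filter of 1 TPM in every sample, and with protein-coding genes only. Among other settings, it did not pass after quantile normalization, without mitochondrial genes or without the abundance trend. The limma adjusted p values there were 0.0633, 0.0565 and 0.158.

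The other 3 complex I genes with an unadjusted p under 0.05, NDUFB3, NDUFA12 and NDUFS5, had log2 fold changes of -0.47, -0.40 and -0.38. At the other end stood NDUFV1, the subunit that binds NADH and the flavin. Its level was 279 and 269 TPM in NC against 307 and 382 TPM after knockdown, where both samples lay above both NC samples, and replicate 2 more so than replicate 1. The log2 fold change was 0.32 (SE 0.145, adjusted p by limma 0.242), and after GC correction it was 0.13.

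Complex II, the succinate dehydrogenase, has no mitochondrially encoded subunit, and its 4 genes had log2 fold changes within 0.10 of 0. SDHA, the flavoprotein, was at 236 and 207 TPM in NC against 188 and 253 TPM after knockdown, so that the sh-ANP32B replicates spanned the NC range. SDHB, the iron-sulfur subunit, was at 195 and 191 TPM in NC against 189 and 185 TPM after knockdown. The membrane anchor SDHC was at 31.5 and 30.4 TPM in NC against 34.6 and 29.0 TPM after knockdown, and SDHD, the other anchor, at 122 and 132 TPM in NC against 136 and 135 TPM. Groups did not overlap for SDHB and SDHD, whose log2 fold changes lay on opposite sides of 0 and were smaller than their SE. The log2 fold changes ran from -0.045 for SDHB to 0.098 for SDHD with limma adjusted p of 0.687 or more, and the sign of the median of complex II changed with the scaling between samples, from 0.0061 as deposited to -0.086 after median-of-ratios scaling.

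Complex III had 10 genes, among which UQCR11 was the 1 that passed. CYC1, the cytochrome c1 subunit and the most abundant of complex III by its NC mean, was at 488 and 457 TPM in NC against 383 and 605 TPM after knockdown. The sh-ANP32B replicates thus lay on either side of NC, and the log2 fold change was 0.027 (SE 0.215, adjusted p by limma 0.959). The change was 0.36 when sh-ANP32B replicate 1 was left out and -0.30 when replicate 2 was left out, so 1 library decides its direction. The core proteins UQCRC1 and UQCRC2, which hold the complex on the matrix side, had log2 fold changes of -0.034 and -0.0039. The 6 small subunits, UQCR11 among them, had a median of -0.26.

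The highest of complex III was UQCRB, known as the ubiquinone-binding protein, at 76.2 and 79.7 TPM in NC against 88.5 and 103 TPM after knockdown, a log2 fold change of 0.29 (SE 0.141, adjusted p by limma 0.265). The groups did not overlap. UQCRHL, an intronless copy of UQCRH with which it may share reads, was at 7.78 and 7.67 TPM in NC against 6.25 and 6.01 TPM after knockdown, a log2 fold change of -0.29 (SE 0.206, adjusted p by limma 0.441). CYCS encodes cytochrome c, the mobile carrier between complexes III and IV that also triggers apoptosis when released. Its level was 76.3 and 83.3 TPM in NC against 64.4 and 56.5 TPM after knockdown. Both sh-ANP32B samples were below both NC samples, with a log2 fold change of -0.40 (SE 0.143, adjusted p by limma 0.162), and 42 pseudogenes of CYCS are annotated with which it could share reads.

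In complex IV, the cytochrome c oxidase, 13 genes were tested, 0 passed by limma, and 3 were lower (COX6C, COX7A2 and COX5A) and 1 was higher (COX8C) at an unadjusted p under 0.05. COX6C was the lowest, at 209 and 235 TPM in NC against 145 and 163 TPM after knockdown, with no overlap and a log2 fold change of -0.53 (SE 0.135, adjusted p by limma 0.0818). It overlaps VPS13B on the opposite strand, and 17 pseudogenes carry its name. COX4I1, the most abundant of complex IV and its regulatory subunit, was at 586 and 553 TPM in NC against 499 and 644 TPM after knockdown, a log2 fold change of -0.0055. NDUFA4, first described in complex I and now counted to complex IV, was at 87.3 and 91.6 TPM in NC against 88.6 and 89.5 TPM after knockdown. These 2 genes had overlapping groups.

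Several complex IV subunits exist as isoforms, and those measured had different values. COX7A2, the form of most tissues, was at 129.9 and 142 TPM in NC against 108 and 96.2 TPM after knockdown, a log2 fold change of -0.41 (SE 0.134, adjusted p by limma 0.131), with no overlap. COX7A2L, which joins complexes III and IV in supercomplexes, was at 85.2 and 73.2 TPM in NC against 82.2 and 77.9 TPM after knockdown, with overlap. Among the COX8 genes, COX8A, the form of most tissues, was at 479 and 452 TPM in NC against 357 and 519 TPM after knockdown. It lay below NC in replicate 1 and above it in replicate 2. COX8C, known from testis, was at 27.0 and 32.5 TPM in NC against 37.5 and 42.0 TPM after knockdown, a log2 fold change of 0.41 (SE 0.166, adjusted p by limma 0.20), with both sh-ANP32B samples above both NC samples. COX8C lies within UNC79 on the same strand. The differences between isoforms were not tested.

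COX6A1, the widely expressed form of its pair, was at 319 and 303 TPM in NC against 211 and 319 TPM after knockdown, so that sh-ANP32B replicate 1 alone stood below NC. COX6B1 was at 222 and 211 TPM in NC against 186 and 206 TPM after knockdown, a log2 fold change of -0.15. The remaining isoform partners of these genes were not analysed here.

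Complex V had 18 genes with a median log2 fold change of -0.19, of which 13 lay below 0 and 0 passed by limma. The order of the complexes changed with the library left out: without sh-ANP32B replicate 2 the median was -0.098 for complex V, -0.25 for complex III, -0.20 for complex IV and -0.20 for complex I, and without replicate 1 it was -0.24, -0.080, -0.019 and 0.019. At an unadjusted p under 0.05, 5 were lower, namely ATP5MC1, ATP5PO, ATP5ME, ATP5PF and ATP5MG. By position in the enzyme, the median was -0.18 for the c ring (3 of 3 genes below 0) and -0.29 for the peripheral stalk (4 of 4). It was -0.25 for the small membrane subunits (4 of 5). The F1 part, the catalytic head (ATP5F1A and ATP5F1B) with the central stalk (ATP5F1C, ATP5F1D and ATP5F1E), was at 0.0058 (2 of 5). After GC correction the F1 part was at -0.20, with 3 of 5 below 0. Beside it stood -0.20 for the c ring, -0.34 for the peripheral stalk and -0.33 for the small membrane subunits. In sh-ANP32B replicate 1 alone against NC, the F1 part was at -0.050 and the c ring at -0.034. The peripheral stalk genes ATP5PB, ATP5PD, ATP5PF and ATP5PO had log2 fold changes from -0.44 for ATP5PO to -0.083 for ATP5PD. Their products hold the head still while the rotor turns. The summed level of the peripheral stalk was 997 and 987 TPM in NC, against 847 and 769 TPM after knockdown, or 81.5% of NC. Both sh-ANP32B samples were below both NC samples for this sum. The same held for the sums of the c ring and of the small membrane subunits. The latter were at 678 and 694 TPM in NC against 605 and 625 TPM after knockdown, or 89.7% of NC. The sum of the F1 part overlapped, at 1511 and 1541 TPM in NC against 1374 and 1578 TPM after knockdown. With 2 samples against 2, an exact permutation test cannot give a two-sided p below 0.333, so sums were not tested.

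The c ring, the rotor that protons turn, is built from 1 mature protein encoded by 3 genes that differ in the import sequence. ATP5MC1 was at 126 and 136 TPM in NC against 78.3 and 90.0 TPM after knockdown. The groups did not overlap, and the log2 fold change was -0.64 (SE 0.138, adjusted p by limma 0.0589). ATP5MC2, the most abundant of the 3, was at 498 and 383 TPM in NC against 432 and 438 TPM after knockdown, a log2 fold change of -0.0065. ATP5MC3 was at 122 and 166 TPM in NC against 139 and 113 TPM after knockdown, a log2 fold change of -0.18. The latter 2 had overlapping groups, and the 3 genes summed to 746 and 685 TPM in NC against 649 and 641 TPM after knockdown. ATP5MC1 passed the test after median-of-ratios scaling, after quantile normalization, with values rescaled without the mitochondrial genome, after GC correction, with a filter of 1 TPM in every sample and with protein-coding genes only. Among other settings that kept all 4 samples, it did not pass with upper-quartile scaling, no filter, a pseudocount of 0.1 or without the abundance trend. The limma adjusted p values there were 0.0523, 0.0616, 0.0646 and 0.153. Leaving out 1 sample at a time gave log2 fold changes from -0.74 to -0.54.

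ATP5F1B, the catalytic beta subunit and the most abundant of complex V, was at 912 and 923 TPM in NC against 817 and 764 TPM after knockdown, a log2 fold change of -0.22 (SE 0.119, adjusted p by limma 0.326), with no overlap. Its partner in the head, the alpha subunit ATP5F1A, had the highest log2 fold change of all members, 0.52 (SE 0.335, adjusted p by limma 0.395). This value rests on 1 library: ATP5F1A was at 168 and 177 TPM in NC against 167 and 369.9 TPM after knockdown, and without sh-ANP32B replicate 2 the log2 fold change was -0.050. The inhibitor ATP5IF1, which blocks the reverse reaction of the enzyme, showed the same order, with 70.3 and 66.2 TPM in NC against 62.6 and 123 TPM after knockdown, and without sh-ANP32B replicate 2 its log2 fold change was -0.12 in place of 0.36.

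**Figure D2:**
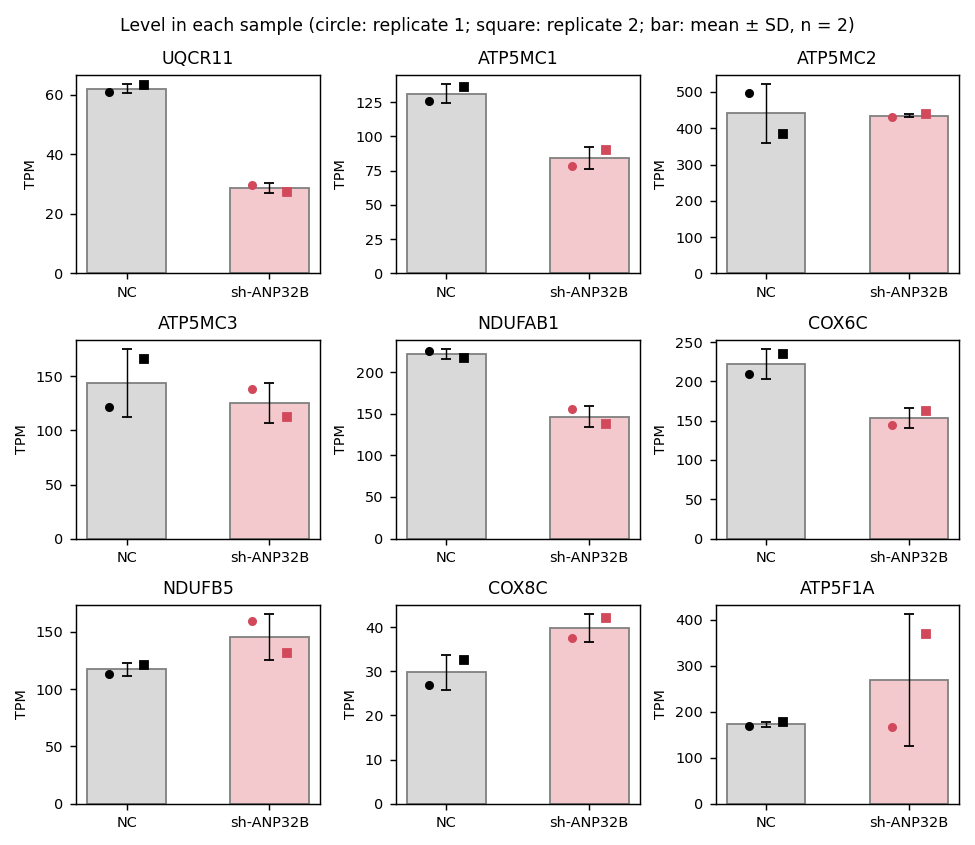
TPM of 9 members in each sample (circle for replicate 1, square for replicate 2), with bars for the group mean and error bars for the SD (n = 2 each); each axis starts at 0. UQCR11, ATP5MC1, NDUFAB1 and COX6C have both sh-ANP32B samples below NC, whereas ATP5F1A is high in sh-ANP32B replicate 2 alone.

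The summed level of all 83 members was 13279 and 13117 TPM in NC, against 11585 and 13113 TPM after knockdown. Group means were 13198 ± 115 TPM for NC against 12349 ± 1081 TPM for sh-ANP32B (n = 2 each, SD), a difference below the spread of the sh-ANP32B samples. Replicate 1 of sh-ANP32B lay below both NC samples in every complex, and replicate 2 lay above both in complexes I, II and III and below both in complexes IV and V. Complex V was at 4001 and 3973 TPM in NC against 3538 and 3736 TPM after knockdown. Complex IV was at 2811 and 2798 TPM in NC against 2304 and 2777 TPM after knockdown.

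**Figure D3:**
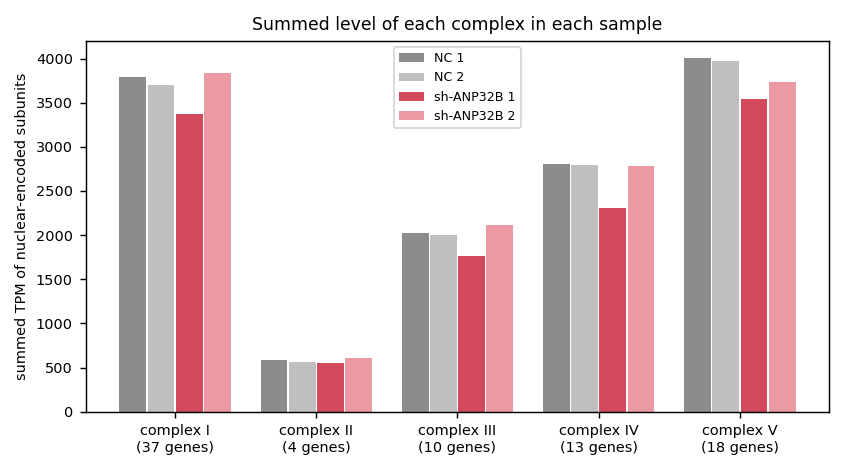
Summed TPM of the nuclear-encoded subunits of each complex in each of the 4 samples. Replicate 1 of sh-ANP32B is the lowest bar in every complex, and replicate 2 is close to NC except in complex V, where it is at 3736 TPM beside 3973 TPM in the lower NC sample.

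The sh-ANP32B replicates differed from each other more than the NC replicates did, and the members' difference went with base composition. A difference of over 0.5 on the log2(TPM + 1) scale separated the sh-ANP32B replicates for 18 members, or 21.7% beside 25% of all genes, and the NC replicates for 1 member, or 1.2% beside 12.8%. That 1 member was NDUFA3, an accessory subunit of complex I named for this count after its values were seen, at 5.53 and 2.49 TPM in NC. Across the 83 members, the difference of sh-ANP32B replicate 2 from replicate 1 had a Spearman rho of 0.650 with the GC content of the longest transcript, and 0.577 across 15427 genes with a GC value. Between the NC replicates rho was -0.259 for the members and -0.206 for all. These values describe 4 libraries, as genes of a library are not independent. In the 41 members above the median GC content of 47.2%, sh-ANP32B replicate 2 exceeded replicate 1 by a median of 0.31, whereas in the other 42 the median was -0.078.

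**Figure D4:**
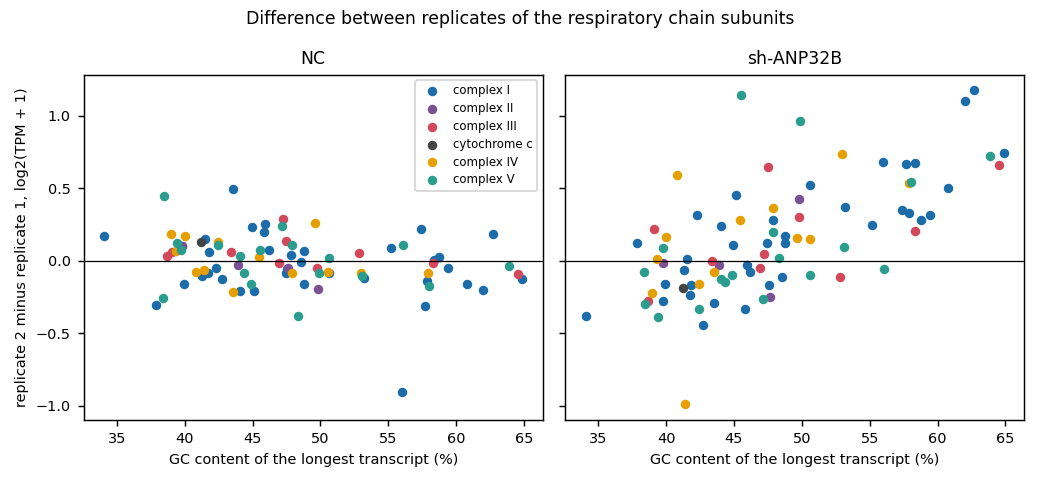
Replicate 2 minus replicate 1 on the log2(TPM + 1) scale against the GC content of the longest transcript for the 83 members, in NC (left) and sh-ANP32B (right), coloured by complex. The points rise with GC content in sh-ANP32B (Spearman rho 0.650) and not in NC (-0.259).

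Compared with the mean of NC, 66 of 83 members were lower in sh-ANP32B replicate 1, with a median of -0.19, and 46 were lower in replicate 2, with a median of -0.060. With GC content fitted by loess within each sample, 13 members passed the test, or 15.7% beside 16.6% of all genes with a GC value. Of these 12 were lower, or 14.5% beside 8.72%, and 1 was higher, or 1.2% beside 7.9%. Lower were UQCR11, ATP5MC1, NDUFAB1, ATP5ME, ATP5PF, ATP5PO, NDUFS5, NDUFA12, COX7A2, CYCS, COX7C and NDUFB10, with log2 fold changes from -1.19 to -0.30. The 1 higher was NDUFB5, an accessory subunit of complex I named here after its values were seen, at 113 and 122 TPM in NC against 159.5 and 132 TPM after knockdown, with a corrected log2 fold change of 0.29 (adjusted p by limma 0.0449, SE 0.0705). The median over the members was -0.22 after correction, beside 0.0012 over all genes.

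**Figure D5:**
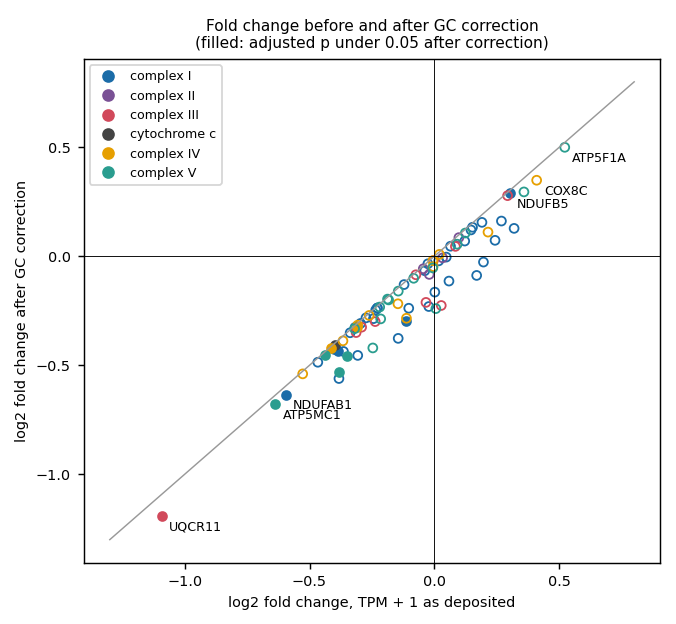
Log2 fold change of each of the 83 members after GC correction against that from TPM as deposited, with a line of equality; filled points have an adjusted p under 0.05 after correction (13 members). Most points lie on or below the line, and the filled points other than NDUFB5 lie below 0.

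Genes that serve the respiratory chain were compared with its subunits in the same fit. Of 67 listed assembly factors 66 were tested, of which 0 were lower and 1 higher with an adjusted p under 0.05, beside 1.18% and 2.14% of all genes. At an unadjusted p under 0.05, 11 were lower and 6 higher, or 16.7% and 9.09% beside 8.72% and 15% of all genes. Below 0 lay 44 of 66, or 66.7% beside 42.1%, with a median of -0.15. The 1 higher was COA8, a complex IV assembly factor, at 27.6 and 21.1 TPM in NC against 48.5 and 52.8 TPM after knockdown, a log2 fold change of 1.04 (SE 0.178, adjusted p by limma 0.0435). By complex, the factors below 0 were 19 of 22 for complex I, 2 of 4 for II, 5 of 9 for III and 17 of 26 for IV. For complex V they were 1 of 5. The medians for complexes I to V were -0.21, -0.10, -0.012, -0.17 and 0.31. Of 18 regulators of respiratory genes tested, which include transcription factors, coactivators and the machinery of the mitochondrial genome, 1 was lower and 0 higher with an adjusted p under 0.05, or 5.56% and 0% beside 1.18% and 2.14% of all genes. The lower gene was TWNK, the helicase that replicates mitochondrial DNA, at 26.6 and 23.9 TPM in NC against 12.0 and 12.8 TPM after knockdown, a log2 fold change of -0.97 (SE 0.170, adjusted p by limma 0.0440). At an unadjusted p under 0.05, 6 of the 18 were lower and 1 was higher, or 33.3% and 5.56% beside 8.72% and 15% of all genes.

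The 13 mRNAs of the mitochondrial genome, which encode the core subunits that the nuclear members join, all had log2 fold changes below 0, with a median of -0.50. None passed by limma, 7 were lower at an unadjusted p under 0.05, or 53.8% beside 8.72% of all genes, and their summed level was 108386 and 110347 TPM in NC against 95462 and 67388 TPM after knockdown. Against the mean of NC, their median was -0.22 in sh-ANP32B replicate 1 and -0.70 in replicate 2. These 13 mRNAs come from 1 genome and are not independent, which limits what their share can show. With TPM rescaled without that genome, the nuclear members had a median of -0.16 and 2 passed the test, UQCR11 and ATP5MC1. The 75 mitochondrial ribosomal proteins, which translate those mRNAs, had 60 log2 fold changes below 0, or 80% beside 42.1% of all genes, and a median of -0.22. Among them 0 were lower and 1 was higher with an adjusted p under 0.05, or 1.33% higher beside 2.14%. At an unadjusted p under 0.05, 17 were lower and 1 higher, or 22.7% and 1.33% beside 8.72% and 15%. The higher gene, MRPL41, was at 33.8 and 39.8 TPM in NC against 67.7 and 91.7 TPM after knockdown. Tested too were 6 other genes whose products feed electrons to ubiquinone, directly or, for ETFA and ETFB, through ETFDH. Of these 0 passed by limma and 2 lay below 0. At an unadjusted p under 0.05, 1 was lower, ETFA, or 16.7% beside 8.72%.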

How the data were processed

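RNA was sequenced from 2 NC and 2 sh-ANP32B samples of Kasumi-1 cells, grouped by their titles. The authors aligned reads with HISAT2 2.0.5 to hg38, per the submitters' processing notes, and deposited TPM values. The program that made the TPM values, its annotation, its strand setting and its filters are not given in the sources used here. TPM divides by transcript length and sample total and keeps no depth, so the precision from counting is unknown. Each column was matched to a sample by name.

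Symbols, coordinates, GC content and transcript length came from GENCODE v44 (hg38), in which 16986 of 18567 gene IDs were found and 1581 were not. Genes that reached 1 TPM in 2 samples or more were converted to log2(TPM + 1) and compared by limma 3.58.1 with an abundance trend (R 4.3.3), two-sided, with Benjamini-Hochberg adjustment over 16817 genes. Fold changes are on this scale, where those of low genes come out too small. The DESeq2 test of the study needs counts and was not run. The script was tested on simulated data. Promoters came from RefSeq (GRCh38.p14).

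The members and lists were chosen with earlier results of these data known, and no list was given a p-value. Members given with their values by sample were those with an adjusted p under 0.05, the lowest, highest and most abundant of each complex, and fixed isoform groups and genes (among them SDHA to SDHD, CYC1, CYCS, UQCRHL and ATP5IF1), and from the other lists genes with an adjusted p under 0.05, ANP32B and MYC. Other members are named where a count is small or a reason is given, after their values were seen. NDUFA4 was counted to complex IV. Of the 84 members, 51 have annotated pseudogenes and 34 overlap a coding gene, and reads may be shared there. Alternatives were other scalings, filters, a pseudocount of 0.1, GC and length correction by loess (span 0.5), replicate blocks, limma without the trend, protein-coding genes only, and leaving out each sample. Scripts ran in Python 3.11.15 with pandas 2.3.3, numpy 2.4.6, scipy 1.17.1 and matplotlib 3.10.9.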

Additional observations from a re-analysis of the deposited data

How the results depend on the processing

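The median log2 fold change of all members stayed below 0 under each of the 18 alternatives, from -0.22 to -0.060, and UQCR11 passed the test in all but 3 of them (limma without the trend, and leaving out either NC sample). Members passing on the lower side, 1 as reported, numbered 3 with median-of-ratios scaling, with 1 TPM required in every sample and with protein-coding genes only, and 2 with quantile normalization and without mitochondrial genes. They numbered 12 with GC correction (1 higher), 9 with GC and length correction (1 higher), and 0 with limma without the abundance trend, where 5 members had an unadjusted p under 0.05 and 0 genes were called lower and 0 higher of all tested, although 3701 had an unadjusted p under 0.05. The study criterion gave 7 lower members after median-of-ratios scaling in place of 4.

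Among all genes tested, calls on the higher side numbered 236 after median-of-ratios scaling. Calls numbered 1345 lower and 1218 higher with GC correction, 1299 and 1224 with GC and length correction, and 365 and 601 with protein-coding genes only. The median of complex I was -0.23 with GC correction and -0.22 with GC and length correction. The median of complex II was -0.086 with median-of-ratios scaling, -0.056 with upper-quartile scaling, -0.034 with quantile normalization, -0.043 without mitochondrial genes and -0.032 with GC correction, and that of complex V was -0.28 with median-of-ratios scaling. The causes were not tested.

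The groups share the numbers 1 and 2, but samples with equal numbers did not deviate together (across 16817 genes, Pearson's r -0.0925, Spearman's rho -0.168), and with 2 pairs the numbers do not pair the samples. With the replicate block 2 members passed on the lower side (UQCR11 and ATP5MC1), 1 member met the study criterion on the higher side, and 491 genes were lower and 982 higher. With the crossed block these were 4 members, 1 member, 724 and 1271 genes. With the replicate block and GC correction together 8 members were lower, 952 genes were lower and 790 higher, and the medians of complexes I and II were -0.23 and -0.032.

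Leaving out each sample in turn gave 0 to 22 lower members and 0 to 14 higher, 2 to 11 lower and 0 to 6 higher by the study criterion, and 59 to 1628 lower and 214 to 2451 higher genes of all tested. The counts were 0 without NC replicate 1 or NC replicate 2, 17 lower and 14 higher without sh-ANP32B replicate 1 (20.5% and 16.9% beside 9.68% and 14.6% of all genes), and 22 lower and 2 higher without sh-ANP32B replicate 2 (26.5% and 2.41% beside 8.47% and 12.3%). A group left with 1 sample is assumed to vary like the other. The medians ranged from -0.20 to 0.019 for complex I, positive without sh-ANP32B replicate 1, from -0.026 to 0.053 for complex II, from -0.25 to -0.044 for complex III, from -0.20 to -0.019 for complex IV and from -0.24 to -0.098 for complex V. Complex V had the lowest median of the 5 as reported, but not with the GC corrections (-0.22 beside -0.27 for complex IV with GC correction alone) nor without NC replicate 2 or sh-ANP32B replicate 2. CYC1 ranged from -0.30 without sh-ANP32B replicate 2 to 0.36 without replicate 1. TPM gives no depth by which to weigh single members, and reads shared with pseudogenes or overlapping genes were not separated.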
